A study of Sus scrofa with 6 samples.

Results

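The transcripts described here are 1792 intergenic long noncoding RNAs (lncRNAs) that were assembled from muscle reads and lie on chromosomes 1 to 18 or X of the pig. They were chosen by name and position alone, as assembled transcripts called LINC with a running number and placed on 1 of these chromosomes, among the 83119 transcripts of the deposited table. The numbers are those of the study and are not the names of registered pig genes. Another 25 such lncRNAs on chromosome Y and 219 on unplaced scaffolds were left out of the 2036 intergenic lncRNAs in all. The table holds 7386 newly assembled lncRNAs, of which 1614 antisense and 3661 sense-overlapping lncRNAs lie on the same chromosomes and serve here for comparison.

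lncRNAs are transcripts longer than a short cut-off that carry no clear open reading frame. The intergenic kind, also called lincRNAs, lies between annotated genes, whereas antisense lncRNAs run against a gene and sense-overlapping lncRNAs share its strand. Some lncRNAs act on chromatin or on neighbouring genes, others act in the cytoplasm, and for most no function is known. In skeletal muscle and in adipocytes, several are known to act in differentiation.

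The RNA was that of longissimus dorsi (LD), a long back muscle, in 6 Laiwu pigs, a Chinese breed known for intramuscular fat (IMF). The S-H group held 3 castrated male pigs with extremely high IMF content (LW63, LW70 and LW119), and the S-L group held 3 castrated male pigs with extremely low IMF content (LW82, LW88 and LW90). Each pig gave 1 library, and the pigs of the groups were taken from the ends of the range of IMF content in a larger set of pigs. The question of the comparison was which RNAs differ with IMF content. Levels are given as FPKM, which divides the fragments of a transcript by its length and by the size of its library, so that they can be compared between transcripts, and the read depth behind a value is unknown.

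The pieces of muscle held several tissues. All 11 skeletal muscle markers found in the table were above 0, with summed FPKM from 12883 to 17485 in S-H and from 12055 to 18414 in S-L. Of the 15 adipocyte markers in the table, 11 had all S-H pigs above all S-L pigs, and the sum of the list was 687 to 1633 FPKM in S-H and 507 to 727 FPKM in S-L. The same was seen for 2 of 5 blood, 2 of 8 endothelial, 2 of 9 lymphocyte and 1 of 11 skeletal muscle markers and for no macrophage or fibroblast marker, against 8.0% of all tested transcripts, and 1 skeletal muscle marker had all S-H pigs below all S-L pigs. The part of these cell types in the differences below was not tested, and in bulk muscle fewer cells of a type and less RNA per cell cannot be told apart.

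Most intergenic lncRNAs were weak and were found in only some of the pigs. An FPKM above 0 in all 6 pigs was found for 446 of the 1792 (24.9%), while 339 were above 0 in a single pig and 195 were listed at 0 in every pig. The mean over the 6 pigs had a median of 0.114 FPKM over the lncRNAs, and the middle range ran from 0.0564 to 0.220 FPKM. A mean of at least 1 FPKM was reached by 43 lncRNAs (2.40%), of at least 5 FPKM by 7 and of at least 10 FPKM by 3. The 10 lncRNAs of highest mean carried 22.2% of the summed level of all 1792. Of the 43 lncRNAs that averaged 1 FPKM or more, 38 were above 0 in all 6 pigs.

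Intergenic lncRNAs were less often detected than the other types of newly assembled lncRNAs. Per pig, 53.6% ± 3.84 (SD, n = 6) of them were above 0, against 66.1% ± 4.82 of the antisense and 77.6% ± 3.02 of the sense-overlapping lncRNAs. The differences were -12.5 and -24.0 percentage points. The mean of log2(FPKM + 0.1) was also lower, by -0.40 against antisense and by -0.77 against sense-overlapping lncRNAs. Each of these 4 differences had the same sign in 6 of 6 pigs (exact two-sided sign-flip permutation test within pigs, p = 0.031, the smallest p that 6 pigs allow, and the same after Benjamini-Hochberg adjustment over the 4 tests). Detection in all 6 pigs was reached by 37.2% of the antisense and 53.2% of the sense-overlapping lncRNAs, and their median levels were 0.164 and 0.252 FPKM.

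**Figure D1:**
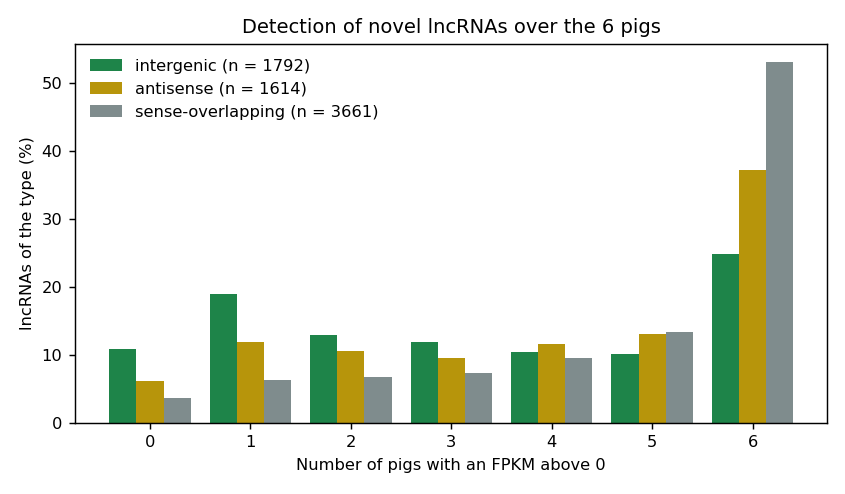
Share of the intergenic, antisense and sense-overlapping assembled lncRNAs (y axis, percent of the type) by the number of pigs in which the FPKM was above 0 (x axis, 0 to 6). The intergenic bars are the highest of the 3 types from 0 to 3 pigs, and the lowest at 6 pigs, with 24.9% against 37.2% and 53.2%.

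The weak levels went with a large spread between pigs of a group. Testing needed a mean of 0.1 FPKM or more, which 982 intergenic lncRNAs had (54.8%), with LINC784 just inside and LINC380 just outside this limit (means of 0.10005 and 0.0999 FPKM). Among these, the SD of log2(FPKM + 0.1) within groups had a median of 0.89, compared with 0.79 for antisense, 0.73 for sense-overlapping and 0.70 for all tested transcripts. In 56 of the 982 (5.70%), 1 pig held at least 90% of the sum over the 6 pigs. This was the case for 26 antisense (2.38%) and 72 sense-overlapping (2.52%) lncRNAs among those tested.

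The pigs of the groups did not separate in the number or the total level of intergenic lncRNAs. In S-H, 1018 lncRNAs were above 0 in LW63, 942 in LW70 and 1035 in LW119, and in S-L, 987 in LW82, 845 in LW88 and 941 in LW90. The means were 998 ± 49.5 and 924 ± 72.5 (SD, n = 3 each; exact two-sided permutation test, p = 0.20, adjusted p = 0.60 over 3 measures, with 0.10 as the smallest p that 3 pigs against 3 allow). LW119 had the highest count and LW88 the lowest, and LW70 and LW90 were about equal. By the read totals of the study, LW88 also had the fewest clean reads, while LW90 had the most and LW119 came next. The counts were not adjusted for read totals, and their part in the counts was not tested. The summed FPKM was 428 ± 92.7 in S-H and 425 ± 53.8 in S-L (SD, n = 3 each; exact permutation test, p = 1.0). The mean of log2(FPKM + 0.1) was -2.31 ± 0.11 and -2.37 ± 0.15 (exact permutation test, p = 0.60). With 3 pigs a group these tests cannot reach the usual threshold of 0.05.

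The 8 lncRNAs of highest mean included those in every library and those of single pigs. LINC762 (chr18:32644490-32646655, Sscrofa11.1) had the highest mean, 19.8 FPKM. It overlaps the RefSeq lncRNA gene LOC100519283. Its FPKM was 14.6 in LW63, 17.5 in LW70 and 22.4 in LW119, and 7.53 in LW82, 38.2 in LW88 and 18.5 in LW90. The S-L pigs enclosed the S-H pigs, with LW88 highest and LW82 lowest (log2 fold change 0.03 ± 0.57 SE).

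LINC1714 (chr9:130826439-130829759) followed with a mean of 15.5 FPKM. Its span overlaps the RefSeq gene of ATF3, a transcription factor induced by cell stress, although the Ensembl gene model of ATF3 ends before it. Its FPKM was 3.39 in LW63, 0.848 in LW70 and 31.2 in LW119, against 7.94 in LW82, 17.0 in LW88 and 32.8 in LW90. ATF3 itself was at 0.843, 3.11 and 26.1 FPKM in the S-H pigs and at 5.54, 16.2 and 38.3 FPKM in the S-L pigs. In both transcripts LW119 and LW90 were the highest pigs and LW63 and LW70 the lowest, so that the groups overlapped. The log2 fold change of LINC1714 was -1.82 with 6 pigs (limma, unadjusted p = 0.190) and -3.19 without LW119 (unadjusted p = 0.00854), where it passed both thresholds used below, and -0.66 without LW70 (unadjusted p = 0.555). LINC1715, another intergenic lncRNA that overlaps this RefSeq gene, was at 0.243, 0.114 and 6.03 FPKM in S-H. In S-L it was at 1.45, 3.00 and 8.14 FPKM, with the same pigs at both ends.

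LINC1522 (chr8:30693320-30699202) and LINC1304 (chr6:153688038-153712253) were the strong lncRNAs whose groups did not overlap. LINC1522 was at 17.6 FPKM in LW63, 16.4 in LW70 and 21.4 in LW119, and at 10.3, 11.9 and 11.8 FPKM in LW82, LW88 and LW90. The 3 S-H pigs all lay above the 3 S-L pigs (log2 fold change 0.69 ± 0.23 SE, limma, unadjusted p = 0.0195, adjusted p = 0.848), which passed neither the fold nor the p threshold used below. It overlaps the RefSeq gene of KLB, the co-receptor of FGF21, and lies 128 bp from LIAS, which makes lipoic acid in mitochondria. KLB was at 4.86, 2.31 and 3.64 FPKM in S-H and at 0.442, 0.396 and 0.349 FPKM in S-L, and LIAS was at 7.56, 7.17 and 4.27 against 3.17, 4.06 and 3.97 FPKM. Both neighbours had no overlap between the groups either. Such a lack of overlap was found for 11.3% of all tested transcripts and 11.2% of the intergenic lncRNAs tested. LINC1523, a shorter transcript of the same assembled gene, was at 0.134, 0.218 and 1.72 FPKM in S-H and at 3.54, 2.06 and 0.417 FPKM in S-L, with overlapping groups.

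LINC1304 lies 382 bp from JUN, a subunit of the AP-1 transcription factor. It was at 12.0, 8.71 and 11.8 FPKM in LW63, LW70 and LW119 and at 7.47, 7.90 and 8.20 FPKM in LW82, LW88 and LW90 (log2 fold change 0.45 ± 0.24 SE, limma, unadjusted p = 0.111). LW70 was close to the S-L pigs. JUN was at 197, 143 and 184 FPKM in S-H and at 105, 101 and 139 FPKM in S-L, again without overlap and with LW70 the lowest S-H pig.

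LINC208 (chr10:28700858-28770682) was almost wholly a product of 2 pigs, 1 of each group. It was at 20.9 FPKM in LW119 and at 22.5 FPKM in LW90, at 0.000579 FPKM in LW63, and it was listed at 0 in LW70, LW82 and LW88. No gene with a symbol is close to it, since the nearest, TUT7, is 224883 bp away. LINC1994 (chrX:71946652-71948666) was at 14.5, 3.53 and 5.13 FPKM in S-H and at 4.46, 18.9 and 0.109 FPKM in S-L, where LW88 and LW90 took the ends of the range.

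LINC343 (chr12:45915424-45928937) overlaps the RefSeq gene of SSH2, a phosphatase of cofilin. It was at 5.29, 3.54 and 7.41 FPKM in S-H and at 7.90, 4.79 and 6.09 FPKM in S-L. LINC989 (chr3:78115202-78129575) overlaps the RefSeq gene LOC110260124 and is 83471 bp from UGP2, the enzyme that makes UDP-glucose for glycogen. LINC989 was at 4.33, 3.30 and 6.29 against 2.14, 2.41 and 10.8 FPKM. The groups of LINC343 and of LINC989 overlapped.

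**Figure D2:**
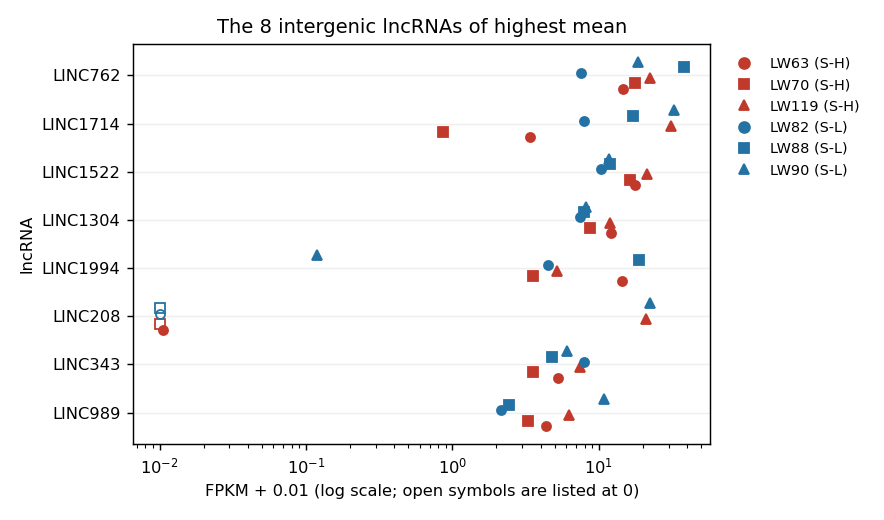
FPKM + 0.01 (x axis, log scale) of the 8 intergenic lncRNAs of highest mean, with 1 point for each pig (red for S-H, blue for S-L, open where listed at 0). LINC1522 and LINC1304 keep the groups apart, while LINC208 is near 20 FPKM in LW119 and LW90 and at or close to 0 in the other pigs.

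Of the intergenic lncRNAs, 93.9% lay within 100 kb of an Ensembl gene, and for 56.2% this nearest gene had a symbol. By the definition of the type none of them overlaps an Ensembl gene of the table. The distance to the nearest Ensembl gene had a median of 9252 bp, with a middle range from 2079 to 32323 bp and extremes of 4 and 940824 bp. Within 1 kb of a gene were 320 lncRNAs (17.9%), at 1 to 5 kb 349, at 5 to 20 kb 508, at 20 to 100 kb 505 and beyond 100 kb 110. The table gives no strand and no exons, so that it cannot be told on which side of a gene an lncRNA starts.

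Level and detection were highest within 1 kb of a gene and lowest beyond 100 kb. The median level was 0.162 FPKM within 1 kb, 0.109 at 1 to 5 kb, 0.115 at 5 to 20 kb, 0.106 at 20 to 100 kb and 0.0927 beyond 100 kb. The share above 0 in all 6 pigs was 39.7%, 26.4%, 22.6%, 20.4% and 8.18% in the same order. The nearest genes themselves had median levels of 2.42, 0.283, 0.195, 0.120 and 0.0289 FPKM, so that the lncRNAs close to a gene had the more strongly expressed neighbours. Of the 43 lncRNAs that averaged 1 FPKM or more, 16 lay within 1 kb. These are descriptions of the same 1792 transcripts in the same libraries and carry no test.

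RefSeq, a second annotation of the same assembly, has genes where Ensembl has none. A RefSeq gene covers at least part of 920 of the intergenic lncRNAs (51.3%), among them 557 in RefSeq lncRNA genes, which were 379 of the 5399 lncRNA genes of that annotation, and 369 in RefSeq protein-coding genes, with 33 in both. The 336 lncRNAs in protein-coding genes alone had a median level of 0.147 FPKM and 33.9% of them were above 0 in all 6 pigs. The 524 in RefSeq lncRNA genes alone had a median of 0.103 FPKM and a share of 18.7%, and the 872 outside any RefSeq gene had 0.108 FPKM and 24.4%. Among the 43 lncRNAs of at least 1 FPKM, 23 lay in a RefSeq gene, including LINC762, LINC1714, LINC1522 and LINC343.

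**Figure D3:**
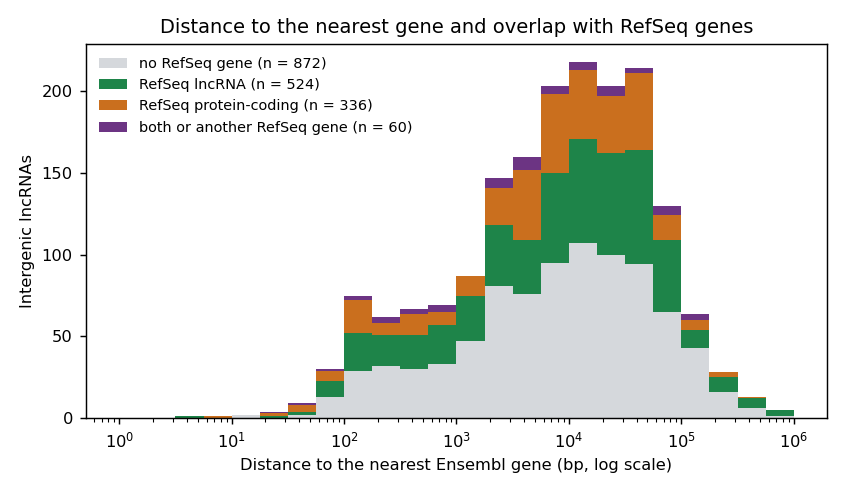
Number of intergenic lncRNAs (y axis) by distance to the nearest Ensembl gene (x axis, bp, log scale), with colours for overlap with a RefSeq gene of each kind. Most lncRNAs lie between 1 kb and 100 kb of an Ensembl gene. Those with a RefSeq lncRNA or protein-coding gene occur at all distances up to 100 kb. Some with a RefSeq lncRNA gene lie beyond 100 kb, such as LINC379 at 940824 bp.

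The differences between S-H and S-L were tested with limma on log2(FPKM + 0.1) over the 40336 transcripts that averaged 0.1 FPKM or more. A transcript was counted as passing if its unadjusted p was below 0.01 and its log2 fold change was 1 or more in either direction. These are the thresholds of the study, which used another tool. Among the 982 intergenic lncRNAs tested, 19 passed (1.93%), 6 higher and 13 lower in S-H. Of all transcripts 1.25% passed, 0.751% higher and 0.496% lower. In the intergenic lncRNAs these shares were 0.611% and 1.32%. None of the 982 had a limma Benjamini-Hochberg adjusted p below 0.05 (lowest 0.381, LINC1549), against 0.0843% of all transcripts, and 66 (6.72%) had an unadjusted p below 0.05, against 5.57%.

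Among antisense lncRNAs 0.823% passed, and among sense-overlapping lncRNAs 0.805%. The share of intergenic lncRNAs with no overlap between the groups was 11.2% (110, of which 55 higher and 55 lower, 5.6% each), against 11.3% of all transcripts (8.0% higher and 3.31% lower). A positive fold change was found for 530 of the 982 (54.0%), against 59.4% of all transcripts. The median log2 fold change was 0.08 for the intergenic lncRNAs and 0.14 for all transcripts. The difference between these shares was not tested.

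The 19 lncRNAs that passed were weak. Their means lay between 0.124 and 1.12 FPKM, their adjusted p values between 0.381 and 0.782, and 5 of them were above 0 in all 6 pigs. They come from 17 loci of overlapping lncRNAs, and 3 are on chromosome X. A RefSeq gene overlaps 8 of them, 3 are within 1 kb of an Ensembl gene and 3 are beyond 100 kb. The number that passed was 8 without LW63 (0.816% of those tested, against 1.29% of all transcripts), 7 without LW70 (0.693% against 1.56%) and 12 without LW119 (1.25% against 1.54%). It was 9 without LW88 (0.874% against 1.6%), 5 without LW90 (0.502% against 1.36%) and 17 without LW82 (1.75% against 1.62%). The intergenic share was thus above that of all transcripts with 6 pigs and without LW82, and below it in the other 5 fits. LINC1544 and LINC1549 passed in all 6 of these fits. The number that passed was 0 with a pseudocount of 1 FPKM.

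**Figure D4:**
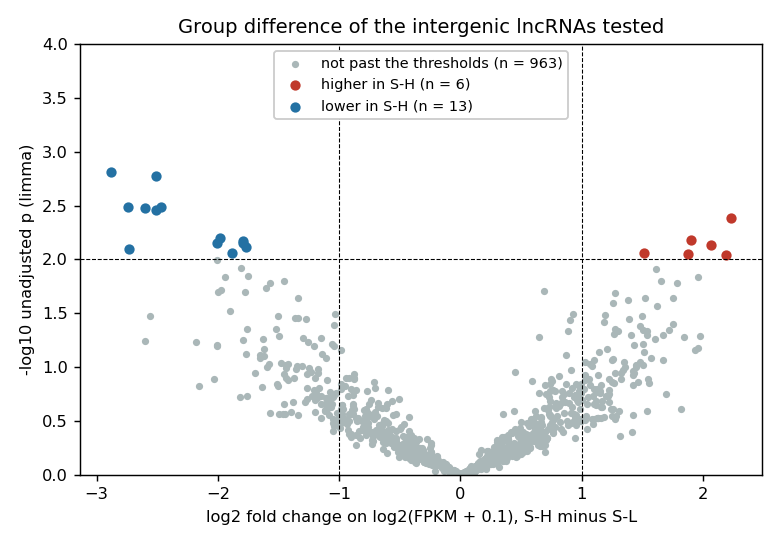
Log2 fold change on log2(FPKM + 0.1), S-H minus S-L (x axis), against the -log10 of the unadjusted limma p (y axis) for the 982 intergenic lncRNAs tested, with dashed lines at the thresholds. The 13 lncRNAs lower in S-H lie between -2.88 and -1.77 and the 6 higher ones to the right of 1, and for the 5 lncRNAs listed at 0 in a whole group the fitted value is no bound.

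Of the 13 lncRNAs lower in S-H, 9 were listed at 0 in LW119, and most of these also in LW63 or LW70. They passed because their S-H values were low, so zeros in S-H pigs follow in part from the choice of these lncRNAs. A separate part of LW119 in these zeros was not tested. LINC1549 (chr8:8216-12518) had the lowest p. It was at 0.119 FPKM in LW63 and listed at 0 in LW70 and LW119, and it was at 1.28, 0.526 and 0.907 FPKM in LW82, LW88 and LW90. All S-L pigs were above LW63, the only S-H pig with signal (log2 fold change -2.88 ± 0.56 SE, limma, unadjusted p = 0.00154). LINC1544 (chr8:2073-4177), from the same assembled gene, was listed at 0 in the 3 S-H pigs and was at 0.717, 0.301 and 0.462 FPKM in the S-L pigs (limma, unadjusted p = 0.00168).

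LINC2010 (chrX:115300384-115301301), LINC386 (chr13:147644342-147645562) and LINC1096 (chr4:43241485-43242391) had the same form, with signal in LW63 alone among the S-H pigs. LINC2010 was at 0.237 FPKM in LW63 and at 0.770, 1.13 and 0.836 FPKM in the S-L pigs. LINC386 was at 0.170 FPKM in LW63 and at 0.499, 0.832 and 0.982 FPKM in S-L. LINC1096 was at 0.158 FPKM in LW63 and at 0.512, 0.953 and 0.642 FPKM in S-L.

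These 3 lncRNAs had log2 fold changes of -2.74 ± 0.61, -2.60 ± 0.58 and -2.51 ± 0.57 (SE). LINC386 is 400 bp from GCSAM, a signalling adaptor of germinal centre B cells. GCSAM had 0.263 and 0.212 FPKM in LW63 and LW119 and a listed 0 elsewhere, so that it did not share the direction of LINC386.

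LINC1965 (chrX:100718783-100721502) was the only lncRNA of the 19 with a mean above 1 FPKM and was detected in every pig. It was at 0.370, 0.188 and 0.0452 FPKM in LW63, LW70 and LW119 and at 0.609, 3.03 and 2.504 FPKM in LW82, LW88 and LW90. LW82 was much closer to the S-H pigs than LW88 and LW90 were (log2 fold change -2.73 ± 0.73 SE, limma, unadjusted p = 0.00796). Its nearest gene with a symbol is GRIA3, a glutamate receptor subunit, 105959 bp away, with overlapping groups.

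LINC1165 (chr5:39824525-39894528) was at 0.108 FPKM in LW70, listed at 0 in LW63 and LW119, and at 0.367, 0.703 and 0.845 FPKM in the S-L pigs. LINC303 (chr12:37693741-37711485), 566 bp from C17orf64, was at 0.0130 FPKM in LW70, listed at 0 in LW63 and LW119, and at 0.364, 0.168 and 0.495 FPKM in the S-L pigs. Both were close to or at 0 in all of S-H, with log2 fold changes of -2.47 ± 0.55 and -2.01 ± 0.52 (SE).

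The other 5 lower lncRNAs were LINC1984 on chromosome X, LINC93 on chromosome 1, LINC926 on chromosome 3 and the overlapping LINC1226 and LINC1171 on chromosome 5, with means from 0.124 to 0.321 FPKM. LINC1984 was at 0.0200, 0.0479 and 0.104 FPKM in S-H and at 0.645, 0.303 and 0.646 FPKM in S-L. LINC93, 41492 bp from TAB2, an adaptor of the kinase TAK1, was at 0.0967, 0.00798 and 0.154 FPKM against 0.678, 0.571 and 0.418 FPKM. LINC926, 67131 bp from the interleukin receptor gene IL9R, was listed at 0 in the 3 S-H pigs and was at 0.275, 0.243 and 0.226 FPKM in the S-L pigs.

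The 6 lncRNAs higher in S-H had means between 0.141 and 0.385 FPKM. LINC857 (chr2:1354467-1367214) was the only one of them detected in all pigs. It overlaps the RefSeq gene of MRPL23, a protein of the mitochondrial ribosome. It was at 0.645, 0.574 and 0.626 FPKM in LW63, LW70 and LW119 and at 0.174, 0.192 and 0.0962 FPKM in LW82, LW88 and LW90. The S-H pigs lay close together and the groups were well apart (log2 fold change 1.51 ± 0.41 SE, limma, unadjusted p = 0.00867, adjusted p = 0.768). TNNT3, the fast skeletal troponin T, is the nearest gene with a symbol and had overlapping groups, from 1665 to 3269 FPKM in S-H and from 2556 to 4430 FPKM in S-L.

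LINC1068 (chr4:153313-159102), LINC778 (chr18:45954194-45966902) and LINC1457 (chr7:27115087-27121441) were listed at 0 in every S-L pig. LINC1068 was at 0.437, 0.564 and 0.193 FPKM in the S-H pigs, LINC778 at 0.834, 0.237 and 0.201 FPKM and LINC1457 at 0.146, 0.396 and 0.304 FPKM, with unadjusted limma p values of 0.00416, 0.00908 and 0.00895. LINC1457 is 8976 bp from KLHL31, a kelch-like protein of muscle. KLHL31 was at 100.2, 117 and 122 FPKM in S-H and at 92.8, 98.8 and 99.2 FPKM in S-L, without overlap but with LW63 close to LW90.

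LINC1068 is 1 of several lncRNAs with almost the same span, between 107 and 184 bp from ZNF7, a zinc finger gene. LINC1070, of the same assembled gene, had a mean of 2.37 FPKM and was at 2.26, 1.27 and 2.40 FPKM in S-H and at 2.53, 3.32 and 2.46 FPKM in S-L. LINC1069 was at 0.634, 1.62 and 0.000797 FPKM against 0.291, 0.0835 and 0.0807 FPKM. The strongest transcript of this locus was thus lower in each S-H pig than in any S-L pig, opposite to LINC1068 (log2 fold change -0.51 ± 0.35 SE, limma, unadjusted p = 0.199), and ZNF7 had overlapping groups, from 2.82 to 8.25 FPKM and from 3.24 to 7.48 FPKM.

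LINC720 (chr17:15056836-15070369), 10218 bp from FERMT1, which links integrins to the cytoskeleton, was at 0.744, 0.474 and 0.269 FPKM in S-H and at 0.0268, 0 and 0.0900 FPKM in S-L. LINC655 (chr16:46011476-46057292) is 377581 bp from PIK3R1, a regulatory subunit of PI3-kinase, and was at 0.418, 0.327 and 0.292 FPKM in S-H. In S-L it was at 0.0652 FPKM in LW82 and listed at 0 in LW88 and LW90. Their log2 fold changes were 2.07 ± 0.54 and 1.90 ± 0.49 (SE), and the values of FERMT1 and PIK3R1 overlapped between the groups.

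**Figure D5:**
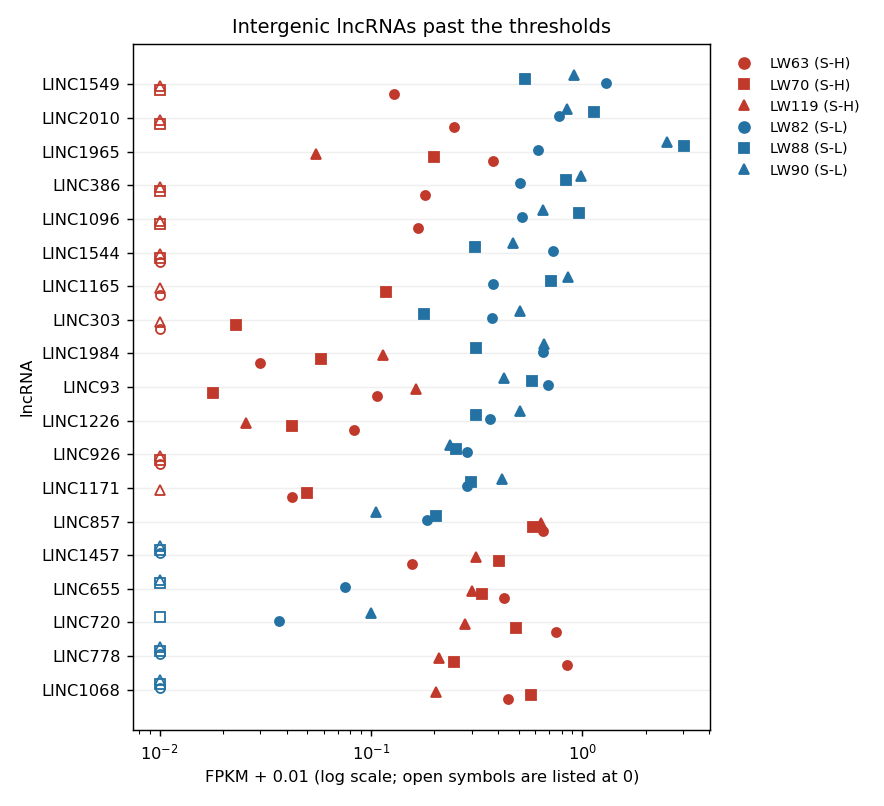
FPKM + 0.01 (x axis, log scale) of the 19 intergenic lncRNAs that passed, with 1 point for each pig (red for S-H, blue for S-L, open where listed at 0). The first 13 lie to the left in S-H and the last 6 to the right, and many of the low points are values listed at 0.

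Of the 13 lower lncRNAs, 5 came from 2 short stretches of the genome, which were picked out after their values were seen and are therefore only described. The first is chr5:39819542-39915260, with 21 intergenic lncRNAs in an overlapping row, 74897 bp or more from OSBPL8, a lipid transfer protein of the endoplasmic reticulum. Of its 19 tested lncRNAs, 18 had a negative fold change and 3 passed (LINC1165, LINC1226 and LINC1171). Their sum over the stretch was 0.737, 3.50 and 0.399 FPKM in LW63, LW70 and LW119 and 5.92, 4.74 and 13.3 FPKM in LW82, LW88 and LW90. LW70 was the highest S-H pig and LW90 the highest S-L pig, and OSBPL8 had overlapping groups, from 7.97 to 10.8 FPKM and from 7.43 to 9.80 FPKM.

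The second stretch, chr8:2073-14215, is the very end of the assembled chromosome and holds 21 intergenic lncRNAs, of which 16 were above 0 and tested and 15 had a negative fold change. LINC1549 and LINC1544 passed. The sum was 1.78, 3.98 and 0.513 FPKM in the S-H pigs and 12.3, 7.04 and 6.23 FPKM in the S-L pigs. The nearest Ensembl gene, ENSSSCG00000047999, which has no symbol, was listed at 0 in LW63 and was at 0.197 and 0.0123 FPKM in LW70 and LW119 and at 0.359, 0.819 and 0.312 FPKM in the S-L pigs. PIGG, the next gene and an enzyme of the GPI anchor, had overlapping groups, from 3.97 to 4.91 FPKM and from 2.97 to 4.36 FPKM. The lncRNAs of a stretch share spans and possibly reads, so that they are not independent of each other. Without both stretches 14 lncRNAs passed, 6 higher and 8 lower, an alternative chosen after seeing the data.

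No lncRNA near the listed genes of fat and of muscle passed, but at the 1.25% found over all transcripts fewer than 1 would pass in a list of either size. Within 100 kb of 53 placed genes of lipid metabolism and adipocytes were 16 intergenic lncRNAs, at 11 of the genes. Of these, 12 were tested, 6 were above 0 in all 6 pigs and none passed, with a median log2 fold change of 0.10 (limma, 1 of the 12 at an unadjusted p below 0.05). Within 100 kb of 47 placed genes of muscle were 29, at 12 genes. Of these, 18 were tested, 7 were above 0 in all pigs and none passed, with a median of 0.55 (limma, 1 of the 18 at an unadjusted p below 0.05, against 5.57% of all transcripts). The median over all transcripts was 0.14.

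LINC155 (chr1:248609703-248610729) was the lipid neighbour with the lowest p. It lies 129 bp from KLF4, a transcription factor that acts early in adipocyte differentiation. It was at 0.752, 0.357 and 0.563 FPKM in LW63, LW70 and LW119 and at 0.188, 0.244 and 0.121 FPKM in LW82, LW88 and LW90 (log2 fold change 1.19 ± 0.46 SE, limma, unadjusted p = 0.0381, adjusted p = 0.848). The groups did not overlap, whereas KLF4 was at 11.09, 7.12 and 15.3 FPKM against 7.92, 10.2 and 13.7 FPKM, with full overlap.

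LINC712 (chr17:51729495-51746288) is 5190 bp from CEBPB, a transcription factor of adipogenesis, and was at 0.875, 0.593 and 1.09 FPKM in S-H and at 1.26, 0.822 and 2.86 FPKM in S-L. LW90 was the highest pig for both LINC712 and CEBPB, which was at 54.1, 53.0 and 60.5 FPKM against 34.6, 88.2 and 102 FPKM. LINC492, 33330 bp from LPL, the lipoprotein lipase, was at 1.58, 1.77 and 2.72 FPKM against 0.558, 1.41 and 3.41 FPKM. Neither difference passed.

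LINC1100 and LINC1101 lie 46374 bp and 52264 bp from FABP4, the fatty acid binding protein of adipocytes. LINC1100 was at 0.362, 0.295 and 0.203 FPKM in S-H and at 0.382, 0.292 and 0.275 FPKM in S-L. FABP4 was at 564, 438 and 239 FPKM in S-H and at 196, 150 and 127 FPKM in S-L, so that the gene separated the groups and its intergenic neighbour did not (log2 fold change of LINC1100 -0.12 ± 0.43 SE). LINC505, which overlaps the RefSeq gene of ACACB, the acetyl-CoA carboxylase of muscle mitochondria, was above 0 in only 3 pigs.

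Among the muscle neighbours, LINC1211 (chr5:19211494-19212832) was the strongest. It lies 73 bp from the Ensembl gene of HOXC9 and 8524 bp from HOXC10, homeobox genes of positional identity. The RefSeq gene of HOXC9 overlaps its span and that of LINC1157. LINC1211 was at 4.93, 3.95 and 3.47 FPKM in the S-H pigs and at 2.43, 2.502 and 2.76 FPKM in the S-L pigs, without overlap (log2 fold change 0.65 ± 0.28 SE, limma, unadjusted p = 0.0521). LINC1157, whose span differs by less than 100 bp from that of LINC1211, was at 0.935, 0.819 and 0.432 FPKM in S-H and at 0.636, 0.781 and 0.652 FPKM in S-L, and HOXC9 was at 4.50, 5.801 and 2.78 FPKM against 4.31, 3.25 and 3.70 FPKM. Both overlapped between the groups.

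LINC310 lies 9788 bp from MYH2, the myosin heavy chain of fast oxidative fibres. LINC1256 lies 11257 bp from MYF6, a muscle regulatory factor, and 2344 bp from PTPRQ, and overlaps the RefSeq protein-coding gene LOC110260827. Both lncRNAs were weak, with means of 0.146 and 0.206 FPKM and overlapping groups. LINC1212, 15369 bp from HOXC10, was at 0.326, 0.0508 and 0.238 FPKM in S-H and listed at 0 in every S-L pig (limma, unadjusted p = 0.0417), and was the muscle neighbour with an unadjusted p below 0.05.

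Across all distances, the difference of an lncRNA and that of its nearest gene were loosely related at most. With the strongest lncRNA taken for each gene and both with a mean of at least 0.1 FPKM, Pearson's r of the log2 differences was 0.06 within 1 kb (135 genes), 0.19 at 1 to 5 kb (109 genes), 0.33 at 5 to 20 kb (135 genes), 0.00 at 20 to 100 kb (111 genes) and 0.11 beyond 100 kb (10 genes). With every lncRNA counted, r at 1 to 5 kb was 0.38 over 132 pairs, of which several share a gene, as at the end of chromosome 8. All points come from the same 6 libraries, and no p is given.

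Some intergenic lncRNAs were far from any Ensembl gene and yet were present in every pig. The farthest among those above 0 in all 6 pigs was LINC379 (chr13:102625894-102672022), 940824 bp from an Ensembl gene. It was at 0.329, 0.0358 and 0.300 FPKM in S-H and at 0.507, 0.0794 and 0.0768 FPKM in S-L. LINC1031 (chr4:23815775-23904564) was next, 470452 bp from an Ensembl gene. LINC1031 was at 0.162, 0.644 and 0.125 FPKM in S-H and at 0.602, 0.0933 and 0.278 FPKM in S-L. Both overlap a RefSeq lncRNA gene and both had overlapping groups. LINC1994, described above, was the third, 296881 bp from an Ensembl gene, but it lies 87 bp from the RefSeq gene LOC110257684.

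Few lncRNAs marked a whole group. Among the 1597 above 0 in at least 1 pig, 15 (0.939%) were above 0 in all S-H pigs and in no S-L pig, against 0.634% of all transcripts, and 5 (0.313%) were above 0 in all S-L pigs and in no S-H pig, against 0.327%. Their highest means were 0.212 FPKM (LINC778) and 0.247 FPKM (LINC1544).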

How the data were processed

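Strand-specific RNA-seq libraries without ribosomal RNA were made from the LD muscle of 3 S-H and 3 S-L pigs, grouped by the labels. As the methods of the study describe, the authors aligned the reads to the pig assembly with Hisat2, assembled transcripts with StringTie, and kept as lncRNAs the assembled transcripts with several exons, sufficient length and no coding potential. Cuffcompare was used for their position against annotated exons. The deposited values are FPKM per transcript and pig. From their sums, 21104 Ensembl transcripts without a symbol appear to have been deposited as TPM, which no source used here states, and a factor for each pig (0.639 to 0.847) turned them into FPKM. This rescales the values of genes without a symbol, such as some nearest genes, and not those of the lncRNAs. No read counts were used, and the read totals that the study states per library entered no test or scaling here. The reads behind single values are unknown, and the number of pigs sets the precision. The summed FPKM per library was 638536 to 846661.

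The groups were compared with limma 3.58.1 (R 4.3.3) with a variance trend on log2(FPKM + 0.1) over all 40336 transcripts that averaged 0.1 FPKM or more, with Benjamini-Hochberg adjustment over all of them. Such fold changes understate those of weak transcripts. On simulated data with 200 transcripts changed by 3 on the log2 scale among 40336, 158 were recovered and 472 unchanged ones passed. In the data themselves, 503 of the 40336 passed. The 200 were drawn from all tested transcripts, and their change was larger than the fitted fold change of any intergenic lncRNA. Their recovery therefore does not describe the intergenic lncRNAs, whose SD within groups was also larger (median 0.89 against 0.70). The study tested reads, with the same thresholds. Per-pig sums were compared by exact permutation (scipy 1.17.1). Distances were taken to the nearest Ensembl gene of the table and to RefSeq genes of the same assembly, Sscrofa11.1, in positions counted from 1. A value of 0 is given as listed at 0, and no fold is given against a group wholly at 0.

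Named lncRNAs were the 8 of highest mean and up to 8 per direction among those that passed without overlap between groups. The 3 farthest from an Ensembl gene among those above 0 in all pigs were also named. So were the 8 nearest to genes of the lipid and muscle lists with a mean of at least 0.1 FPKM. Among those that passed, overlapping lncRNAs of a locus were represented by the strongest. LINC1984, LINC93, LINC926, LINC1226, LINC1171, LINC1715, LINC1523, LINC1069, LINC1070, LINC492, LINC1100, LINC1101, LINC1212, LINC1662 and LINC1076 fall outside this rule and were named after their values were seen. The lncRNAs, lists and tests were chosen with earlier results of these data known. Alternatives were other pseudocounts, filters, scalings, variance models and units, loci in place of transcripts, and each pig left out.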

Additional observations from a re-analysis of the deposited data

How the results depend on the processing

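The reads behind these weak values are unknown, and 544 of the 982 tested lncRNAs were at 0 in at least 1 pig, which limits every difference given. Of 283 alternative values of the 19 lncRNAs that passed, none changed direction, 163 kept the call and 120 lost it, and LINC1544 and LINC1549 kept it in 14 of 15 each. The number that passed (19, 6 higher and 13 lower) was 0 in each direction with a pseudocount of 1 or a mean of at least 1 FPKM, and 0 at an adjusted p below 0.05 (limma). It was 33 without a variance trend (12 higher, 21 lower), 12 with overlapping lncRNAs summed into loci (7 lower), and 11 higher with no filter. Without the chromosome 5 and chromosome 8 stretches 8 lower ones passed. With 1 pig left out it ranged from 5 to 17 (0 to 4 higher, 5 to 13 lower), where a group of 2 shares the spread of the other. The share of the lncRNAs tested was then 0.502% to 1.75%, against 1.29% to 1.62% of all transcripts, and it was below that of all transcripts in 5 of the 6 fits. The cause of these changes was not tested, apart from the fewer samples or features where they apply. The S-H minus S-L difference of the summed FPKM was -46.0 with median-ratio size factors, against 3.31, and -46.9 to 44.5 with 1 pig left out, and that of the mean log2 level was -0.0234 to 0.13, so that neither has a settled direction. The median log2 fold change was 0.02 over all transcripts and -0.02 over the intergenic lncRNAs with size factors, with TPM they were 0.26 and 0.22, against 0.14 and 0.08, and 21 and 19 lncRNAs passed. The other totals and the comparison of lncRNA types kept direction and side. Detection in all 6 pigs was 11.8% at 0.1 FPKM or more, and the median distance was 0 bp to RefSeq genes and 22210 bp to genes with a symbol.

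Among named lncRNAs that did not pass, LINC1714 passed without LW119 (-3.19, limma, unadjusted p = 0.00854) and the log2 fold change crossed 0 for 9. With all values as TPM it was 0.0174 for LINC1031 and 0.0750 for LINC208. With size factors it was -0.11 for LINC1157, -0.11 for LINC762, -0.00077 for LINC1210 and -0.00097 for LINC379. With 1 pig left out it ran from -0.61 to 0.38 for LINC1031, -0.17 to 0.31 for LINC1157, -0.15 to 0.22 for LINC1210, -0.51 to 2.74 for LINC1994, -2.60 to 2.57 for LINC208, -0.49 to 0.0302 for LINC343, -0.21 to 0.68 for LINC379, -0.57 to 0.60 for LINC762 and -0.19 to 0.95 for LINC989. No paired analysis was possible because S-H and S-L pigs are not paired by any label and their replicate numbers follow only the order of the samples.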

Other observations

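Intergenic lncRNAs were spread over all 19 chromosomes considered, from 163 on chromosome 1 to 41 on chromosome 18. Relative to the Ensembl genes of the table there were 5.91 per 100 genes, with the lowest density on chromosome 14 (3.94) and the highest on chromosome 8 (10.01), which holds the row of 21 at its end. Most assembled genes gave a single intergenic lncRNA (1374 of 1535), and the richest gave 12. The span from first to last base had a median of 4797 bp and ran from 233 to 313317 bp.

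In 29 pairs, involving 45 lncRNAs (2.51%), the spans of 2 lncRNAs of different assembled genes differed by at most 100 bp at each end. The weaker one had a median of 60.6% of the mean level of the stronger one in the 26 pairs with both above 0. LINC1662, which has nearly the span of LINC1714 at ATF3, was at 4.94% of its level in LW63, 12.2% in LW70, 6.22% in LW119, 8.54% in LW82, 5.803% in LW88 and 5.47% in LW90. Of the 19 lncRNAs that passed between the groups, 4 were in such pairs. The table gives no strand, so that it cannot be told whether the 2 lncRNAs of a pair come from opposite strands.

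The pigs LW119 and LW90, of different groups, shared the highest values of some lncRNAs, which was noticed after the values were seen. LINC208, LINC989, LINC1714 and LINC1715 were highest in these pigs, and LINC1714 and LINC1715 both overlap the RefSeq gene of ATF3. Others of the 8 lncRNAs of highest mean did not share this. LINC762 and LINC1994 were highest in LW88, LINC343 in LW82 and LINC1304 in LW63. LINC1076 was at 15.6 FPKM in LW119 and between 0.0997 and 2.29 FPKM in the other 5 pigs. Of the lncRNAs above 0 in a single pig, 82 were found in LW119, 79 in LW63, 52 in LW70, 50 in LW82, 45 in LW90 and 31 in LW88.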
